A study of Mus musculus with 8 samples.

Results

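The mitosis and G2 genes are 36 mouse genes whose products build the mitotic spindle, divide the chromosomes or drive the cell from G2 into and through mitosis. They were taken by symbol from the deposited count table, which lists 55401 genes, and all 36 were found and passed the filter on low counts. RNA had been sequenced from 8 libraries of lung cells, taken 10 days after tamoxifen. The 4 control libraries had the genotype Scgb1a1cre; Cdh1F/+ and the 4 mutant-labelled libraries the genotype Scgb1a1cre; Cdh1F/F, so every animal carried the Cre and had received tamoxifen, and the groups differed in having 1 or 2 floxed alleles of Cdh1, the E-cadherin gene. Scgb1a1 is the club cell secretoglobin gene, so its Cre acts in club cells, secretory cells of the small airways, while the RNA came from a wider mix of lung cells. The labels give no age, no number of animals and no statement of which sorted fraction a library holds. Nothing in them says that libraries came from separate animals, so each p-value speaks only of the spread among these 8, which may be technical.

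Entry into mitosis depends on Cdk1, a kinase that is active only when bound to a cyclin, and on the Polo and Aurora kinases that help to switch it on. The spindle then attaches to chromosomes at kinetochores, a checkpoint holds the cell until all are attached, and the anaphase-promoting complex ends mitosis by marking cyclin B and securin for destruction. Most of these genes are transcribed only in G2 and mitosis and are shut off in resting cells by repressor complexes at their promoters, so in tissue their RNA comes largely from the few cells that are dividing. Adult airway and alveolar epithelium divides rarely at rest and more after injury. Cells that are about to grow many cilia do not divide but are known to use parts of the same machinery while they multiply their centrioles.

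The promoters of several members are shown because the members moved together across the libraries, and because such promoters are known for a pair of short elements: the cell cycle genes homology region (CHR), searched here as TTTGAA or TTTAAA, and the CCAAT box, searched as CCAAT, each on both strands. RefSeq promoter windows on GRCm38.p6 were available for 30 of the 36 members, as 32 windows since Ect2 and Prc1 have 2 starts each. The 150 bases before the start are given 5′ to 3′ on the gene's strand, with matches in capitals, for called members (Cdk1, Cdc20, Ect2 and Hmmr) and for members that were not called (Ccnb2, Top2a and Mki67). The windows are chr10:69352913-69353062 for Cdk1, chr4:118437344-118437493 for Cdc20, chr3:27153879-27154028 for Ect2, chr11:40733438-40733587 for Hmmr, chr9:70421555-70421704 for Ccnb2, chr11:99024190-99024339 for Top2a and chr7:135716380-135716529 for Mki67, each on the minus strand.
Cdk1: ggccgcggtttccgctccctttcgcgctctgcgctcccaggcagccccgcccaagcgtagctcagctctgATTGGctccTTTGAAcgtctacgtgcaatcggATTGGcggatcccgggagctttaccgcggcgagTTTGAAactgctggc
Cdc20: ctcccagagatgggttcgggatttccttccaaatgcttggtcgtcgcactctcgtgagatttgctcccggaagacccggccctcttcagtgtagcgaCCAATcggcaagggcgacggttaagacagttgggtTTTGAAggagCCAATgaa
Ect2: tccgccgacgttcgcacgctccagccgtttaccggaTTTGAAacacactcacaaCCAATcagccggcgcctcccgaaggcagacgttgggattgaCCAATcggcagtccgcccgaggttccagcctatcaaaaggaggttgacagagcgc
Hmmr: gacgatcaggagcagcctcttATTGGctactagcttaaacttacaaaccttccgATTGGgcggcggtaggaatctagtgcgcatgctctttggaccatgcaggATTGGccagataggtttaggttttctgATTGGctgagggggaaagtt
Ccnb2: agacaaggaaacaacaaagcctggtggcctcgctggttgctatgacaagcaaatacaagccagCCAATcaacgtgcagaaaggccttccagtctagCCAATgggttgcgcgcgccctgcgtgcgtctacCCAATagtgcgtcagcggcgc
Top2a: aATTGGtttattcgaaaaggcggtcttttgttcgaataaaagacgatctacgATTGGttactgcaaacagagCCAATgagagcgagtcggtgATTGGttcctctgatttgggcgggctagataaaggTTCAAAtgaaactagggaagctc
Mki67: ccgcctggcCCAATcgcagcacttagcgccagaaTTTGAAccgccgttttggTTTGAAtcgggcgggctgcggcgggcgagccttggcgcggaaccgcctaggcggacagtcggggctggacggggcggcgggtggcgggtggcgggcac
In the windows of Cdk1, Cdc20 and Top2a the nearest CHR letters began 15, 18 and 23 bases before the start, with CCAAT letters farther upstream and, in Cdc20, also nearer to the start, at 8 bases. Those of Ect2 and Mki67 lay farther out, the nearest beginning 114 and 98 bases before the start, and Hmmr and Ccnb2 held CCAAT letters only. In the 250 bases before the start, 50% of the 32 member windows held CHR letters, 78.1% held CCAAT letters and 43.8% held both. The shares of all 32851 windows were 25.2%, 33.8% and 8.78%. In 150 bases the shares with CHR letters, CCAAT letters and both were 40.6%, 78.1% and 37.5% of member windows and 14.7%, 24.5% and 3.6% of all windows. Of the 12 called members with a window, each counted by the start with more kinds of match, 5 held both within 150 bases, 1 held CHR letters only, 3 held CCAAT letters only and 3 held neither. Among 18 members that were not called the numbers were 6, 0, 9 and 3. The called member with CHR letters only was Kif2c. Its window, chr4:117178773-117178922, lies inside the gene as the count table places it, 117159639 to 117182639, and so does that of Cdca8, which was not called. Windows end at the start, so letters after it were not searched. A match describes these letters only and is not evidence of a bound site.

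The libraries held 15111663 to 21673654 counts, and levels are given in CPM, counts scaled to a fixed library total. A gene without counts could still hold up to 3, which is 0.138 to 0.199 CPM here, by counting error alone. The lowest count of any member was 16, for Ttk in control 3. Cdh1 stood at 322, 428, 388 and 395 CPM in controls 1 to 4 and 406, 409.8, 402 and 396 CPM in mutant-labelled libraries 1 to 4, and the groups overlapped (ratio 1.05, 95% interval 0.914 to 1.21, adjusted p = 0.649). A sum over the whole gene does not show the loss of floxed exons and gives no check of the labels. On the first principal component of the 2000 most variable genes, with 54.9% of their variance, the mutant-labelled libraries ran from 20.9 to 27.8. Controls 1 and 4, at -8.3 and -13.7, lay nearer to them than controls 2 and 3, at -35.4 and -40.6. The numbers that end the descriptions of control 1 and mutant-labelled library 4 are consecutive, and what they stand for is not stated.

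In mutant-labelled libraries 13 of the 36 mitosis and G2 genes rose and 0 fell at an adjusted p under 0.05, where 5.45% of the 16964 genes tested were higher and 2.36% lower. Calls come from edgeR's quasi-likelihood test, with p-values adjusted by Benjamini and Hochberg's method over all genes tested. The 13 were Plk1, Cdc20, Ect2, Cdk1, Kif2c, Nek2, Hmmr, Aurka, Ccnb1, Anln, Birc5, Kif20a and Nuf2, with ratios from 2.19 to 2.99. The other 23 had ratios from 1.64 to 2.52, all above 1. An unadjusted p under 0.05 was found for 33 of the 36, and for 25.2% of all genes tested. The median log2 fold change was 1.14 over the members and -0.01 over all genes tested. Groups did not overlap for 19 members, with mutant-labelled libraries above controls, as for 9.75% of all genes tested.

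**Figure D1:**
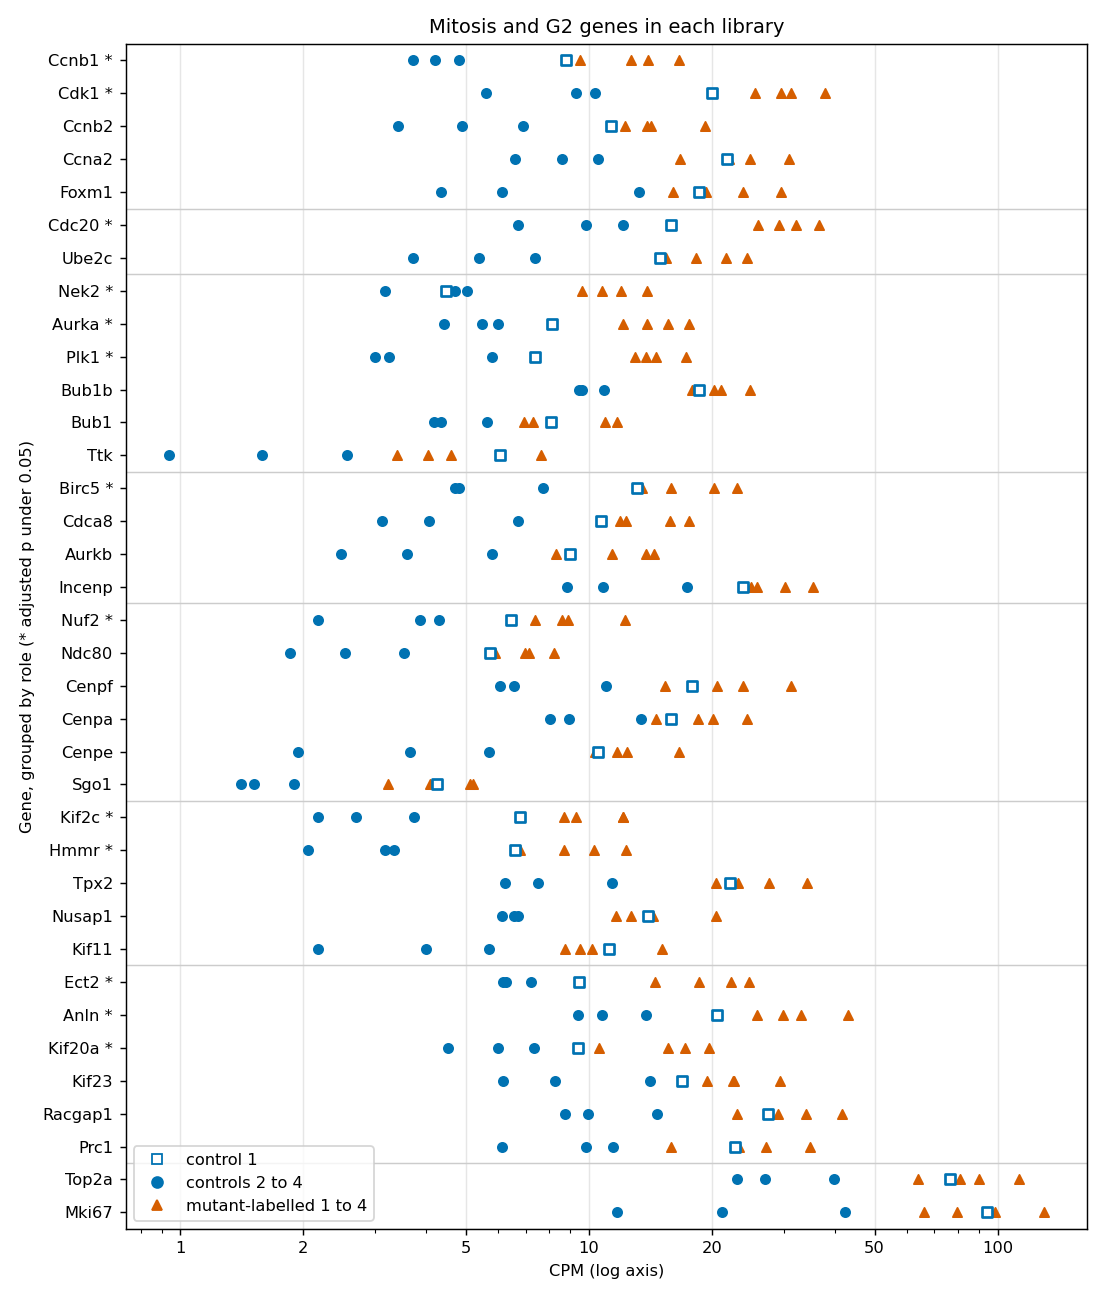
Level of each mitosis and G2 gene in each library, in CPM on a log axis, with genes grouped by role and sorted by adjusted p within a role. Controls 2 to 4 are filled circles, control 1 an open square and mutant-labelled libraries triangles; an asterisk marks the 13 genes with an adjusted p under 0.05. Control 1 sits to the right of the other controls for 35 of 36 genes and at or above the lowest mutant-labelled library for 17.

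The calls turned on control 1 more than on any other single library. It was the highest control for 35 of 36 members, Nek2 being the exception, and exceeded the mean of the other controls by 1.04 times (Nek2) to 3.75 times (Mki67), with a median of 2.27. For 30 members the controls stood in 1 order, control 1 above 4 above 2 above 3, and for 29 members the mutant-labelled libraries did so too, library 3 above 1 above 2 above 4. The summed level of the 36 genes was 618.9, 250.2, 196.4 and 358.9 CPM in controls 1 to 4, or 356.1 ± 187.8 CPM (SD, n = 4). It was 812.0, 719.9, 1001 and 597.7 CPM in mutant-labelled libraries 1 to 4, or 782.7 ± 170.1 CPM (SD, n = 4). Control 1 therefore lay just above mutant-labelled library 4, and the groups overlapped only through that pair. Between those libraries 19 of 36 members were higher in mutant-labelled library 4, with a median ratio of 1.03 and a range from 0.56 for Ttk to 2.67 for Nek2. In bulk RNA fewer dividing cells and less of their RNA per cell cannot be told apart.

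Without control 1, 36 of 36 members were called higher and 36 did not overlap between groups, where 8.86% of genes tested were called higher and 14.9% did not overlap in that direction. Without controls 2 and 3, the lowest for most members, 5 were called, against 3.56% of genes tested, and the median log2 fold change of the members was 0.65. Those 5, Cdc20, Plk1, Aurka, Nek2 and Ect2, were also the members called under every one of the 21 alternative settings. Fewer members were called than with all libraries in each of the other fits that left out 1 library. Calls numbered 7, 9 and 11 without control 2, 3 and 4, where 3.61%, 3.62% and 7.05% of genes tested were higher. They numbered 6, 6, 6 and 8 without mutant-labelled library 1, 2, 3 and 4, where 3%, 3.12%, 4.07% and 3.36% were. All 36 were called when controls 1 and 4 were dropped, against 21.5% of genes tested, and when control 1 and mutant-labelled library 4 were dropped, against 6.05%. For 30 members the controls ran in the order 1, 4, 2, 3, and mutant-labelled library 4 was the lowest of its group for 34. Dropping such libraries tends to raise the calls, and dropping controls 2 and 3 to cut them. The outcome of these fits thus follows from the member values and is no separate check. Of the 13 called with all libraries, Anln was also called in all 8 fits that left out 1, Kif20a in 5, Cdk1, Ccnb1 and Kif2c in 3 each, and Birc5, Nuf2 and Hmmr in 1, that without control 1. The direction was positive for 36 of 36 members under all 21 settings. DESeq2 called 30 members, limma-voom 20, and limma-voom with a weight for each library 36, where these tools called 7.89%, 5.81% and 16.5% of genes tested higher. Without a filter on low counts 8 were called, against 3.23%.

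**Figure D2:**
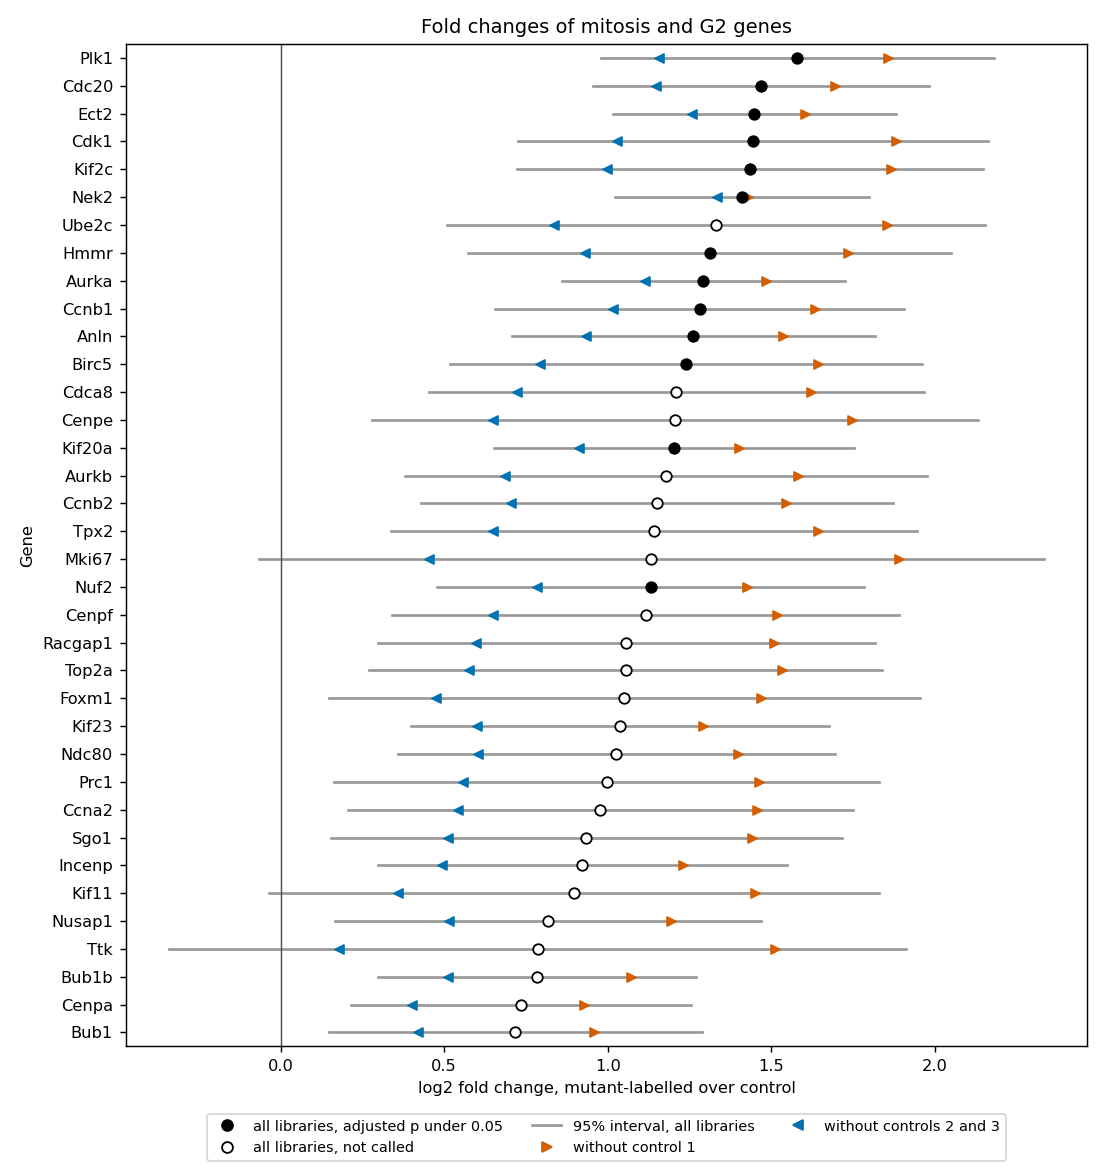
Log2 fold change of each mitosis and G2 gene, mutant-labelled over control, sorted by size. Circles give the fit to all libraries, filled where the adjusted p is under 0.05, grey lines the 95% interval, right-pointing triangles the fit without control 1 and left-pointing triangles the fit without controls 2 and 3. Every triangle lies right of 0, and the gap between both fits is narrow for Nek2 and wide for Mki67 and Ttk.

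Among Cdk1, its cyclins and the transcription factor FoxM1, 2 of 5 rose. Cdk1, the kinase that starts mitosis, stood at 19.99, 9.299, 5.58 and 10.3 CPM in controls 1 to 4 and 31.3, 29.5, 37.9 and 25.5 CPM in mutant-labelled libraries 1 to 4. Every mutant-labelled library lay above every control, with control 1 nearest, and Cdk1 rose 2.72-fold (log2 1.44 ± 0.32 SE, adjusted p = 0.0265). Ccnb1, cyclin B1, its main mitotic partner, stood at 8.77, 4.82, 3.703 and 4.201 CPM in controls 1 to 4 and 13.9, 12.7, 16.6 and 9.51 CPM in mutant-labelled libraries 1 to 4. The groups were apart by the narrow step from control 1 to mutant-labelled library 4, and Ccnb1 rose 2.43-fold (log2 1.28 ± 0.28 SE, adjusted p = 0.0243). Foxm1, which activates G2 and mitosis genes, stood at 18.6, 6.13, 4.35 and 13.3 CPM in controls 1 to 4 and 23.8, 19.4, 29.5 and 16.1 CPM in mutant-labelled libraries 1 to 4. Control 1 lay above mutant-labelled library 4, the ratio was 2.07 and the adjusted p 0.142. Ccna2 (cyclin A2) and Ccnb2 (cyclin B2) had ratios of 1.97 and 2.22 and adjusted p of 0.116 and 0.0607, with the groups apart for Ccnb2. Ccnb1 and Ccnb2 each have an annotated pseudogene, and reads that map to both places were not counted, so their levels are uncertain.

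Of the partners of the anaphase-promoting complex, the activator Cdc20 rose and the ubiquitin-conjugating enzyme Ube2c did not pass. Cdc20 (ENSMUSG00000006398.15, GRCm38 chromosome 4, 118432901 to 118437352) stood at 15.8, 9.85, 6.701 and 12.1 CPM in controls 1 to 4 and 32.1, 29.2, 36.6 and 25.9 CPM in mutant-labelled libraries 1 to 4. All mutant-labelled libraries lay well above control 1, and the gene rose 2.77-fold (log2 1.47 ± 0.23 SE, adjusted p = 0.00501). Per kilobase of gene length Cdc20 had the highest level of the 36 in both groups, 5.95 CPM per kb in controls and 16.6 in mutant-labelled libraries. Ube2c stood at 14.9, 5.37, 3.703 and 7.38 CPM in controls 1 to 4 and 21.7, 18.3, 24.4 and 15.4 CPM in mutant-labelled libraries 1 to 4. Its groups did not overlap, but control 1 reached 14.9 CPM where the other controls ended at 7.38, the ratio was 2.52 and the adjusted p 0.0577.

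Mitotic kinases made up 3 of the 5 members called under every setting. Nek2, a centrosome kinase that loosens the link between centrioles (ENSMUSG00000026622.15, GRCm38 chromosome 1, 191821444 to 191833050), stood at 4.48, 5.03, 3.17 and 4.71 CPM in controls 1 to 4 and 10.8, 13.9, 9.63 and 11.9 CPM in mutant-labelled libraries 1 to 4. Here control 2 and not control 1 was the highest control and mutant-labelled library 3 the lowest of its group. The gene rose 2.66-fold (log2 1.41 ± 0.17 SE, adjusted p = 0.00125), the lowest adjusted p and SE of the 36. Aurka, Aurora A, which matures centrosomes (ENSMUSG00000027496.15, GRCm38 chromosome 2, 172356190 to 172370535), stood at 8.14, 5.99, 4.41 and 5.48 CPM in controls 1 to 4 and 15.6, 13.8, 17.6 and 12.1 CPM in mutant-labelled libraries 1 to 4. The controls differed by 1.85 times at most, and Aurka rose 2.45-fold (log2 1.29 ± 0.19 SE, adjusted p = 0.00375). Plk1, the Polo kinase (ENSMUSG00000030867.7, GRCm38 chromosome 7, 122159439 to 122169873), stood at 7.37, 3.24, 2.998 and 5.79 CPM in controls 1 to 4 and 14.6, 13.8, 17.3 and 13 CPM in mutant-labelled libraries 1 to 4. Its mutant-labelled libraries lay within 1.33 times of each other, the tightest of any member, and its rise of 2.99-fold (log2 1.58 ± 0.27 SE, adjusted p = 0.007602) was the largest of the 36.

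The spindle checkpoint kinases did not pass. Ttk, which starts the checkpoint signal, stood at 6.07, 1.58, 0.941 and 2.56 CPM in controls 1 to 4 and 4.61, 4.04, 7.62 and 3.396 CPM in mutant-labelled libraries 1 to 4. Control 1 was above 3 of the 4 mutant-labelled libraries, controls differed by 6.45 times, and the ratio of 1.72 had an adjusted p of 0.358, the highest of the 36. Bub1 and Bub1b, a kinase and a related pseudokinase (BubR1) at the kinetochore, had ratios of 1.64 and 1.72 and adjusted p of 0.117 and 0.0578, with control 1 inside the mutant-labelled range for both.

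Of the chromosomal passenger complex, which corrects wrong attachments and later acts at the cleavage site, 1 of 4 rose. Birc5, survivin, stood at 13.1, 4.82, 4.703 and 7.74 CPM in controls 1 to 4 and 20.2, 15.9, 22.97 and 13.5 CPM in mutant-labelled libraries 1 to 4. The groups met almost at 13.1 and 13.5 CPM, and Birc5 rose 2.36-fold (log2 1.24 ± 0.32 SE, adjusted p = 0.0476), a call lost in 7 of 8 fits that left out 1 library and kept without control 1. Incenp, the scaffold of the complex, stood at 23.9, 10.8, 8.82 and 17.4 CPM in controls 1 to 4 and 30.2, 25.8, 35.3 and 24.9 CPM in mutant-labelled libraries 1 to 4. It did not overlap between groups, with a ratio of 1.895 and an adjusted p of 0.0776. The kinase Aurkb (Aurora B) and Cdca8 (borealin) had ratios of 2.26 and 2.31 and adjusted p of 0.0768 and 0.0602.

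Centromere and kinetochore genes gave 1 call of 6. Nuf2, part of the NDC80 complex that grips microtubules, stood at 6.46, 3.86, 2.17 and 4.304 CPM in controls 1 to 4 and 8.87, 8.62, 12.3 and 7.38 CPM in mutant-labelled libraries 1 to 4. The groups were apart, and Nuf2 rose 2.19-fold (log2 1.13 ± 0.29 SE, adjusted p = 0.0453), a call that was likewise lost in every fit leaving out 1 library but that without control 1. Its partner Ndc80 had a ratio of 2.04 and an adjusted p of 0.0688, also with no overlap. Sgo1, shugoshin, which protects cohesion at centromeres, stood at 4.24, 1.51, 1.41 and 1.896 CPM in controls 1 to 4 and 5.12, 4.09, 5.21 and 3.21 CPM in mutant-labelled libraries 1 to 4. Control 1 lay inside the mutant-labelled range, the ratio was 1.91 and the adjusted p 0.132. Cenpa, the centromeric histone, Cenpe, a kinetochore motor, and Cenpf had ratios of 1.66, 2.31 and 2.17 and adjusted p between 0.0829 and 0.108.

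Of the spindle motors and microtubule proteins 2 of 5 rose. Kif2c, a kinesin that takes microtubules apart at centromeres, stood at 6.79, 2.69, 2.17 and 3.74 CPM in controls 1 to 4 and 12.2, 8.67, 12.1 and 9.28 CPM in mutant-labelled libraries 1 to 4. All mutant-labelled libraries lay above control 1, and Kif2c rose 2.703-fold (log2 1.43 ± 0.32 SE, adjusted p = 0.0262). Hmmr, a spindle pole protein, stood at 6.6, 3.17, 2.06 and 3.33 CPM in controls 1 to 4 and 10.3, 8.67, 12.3 and 6.79 CPM in mutant-labelled libraries 1 to 4. Control 1 and mutant-labelled library 4 nearly touched, and Hmmr rose 2.48-fold (log2 1.31 ± 0.33 SE, adjusted p = 0.0423). Kif11, the motor that pushes spindle poles apart, stood at 11.2, 3.995, 2.17 and 5.69 CPM in controls 1 to 4 and 9.498, 10.2, 15.1 and 8.74 CPM in mutant-labelled libraries 1 to 4. Control 1 exceeded 3 of 4 mutant-labelled libraries, the ratio was 1.86 and the adjusted p 0.214. Tpx2, the activator of Aurora A, and Nusap1 had ratios of 2.21 and 1.76 and adjusted p of 0.0864 and 0.117.

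Genes of the central spindle and cytokinesis gave 3 calls of 6. Ect2, the exchange factor that activates RhoA to pinch the cell (ENSMUSG00000027699.19, GRCm38 chromosome 3, 27097222 to 27153878), stood at 9.44, 6.27, 6.17 and 7.22 CPM in controls 1 to 4 and 22.2, 18.6, 24.6 and 14.5 CPM in mutant-labelled libraries 1 to 4. Its controls lay within 1.53 times of each other, the narrowest control range of the 36, and Ect2 rose 2.73-fold (log2 1.45 ± 0.19 SE, adjusted p = 0.00197). Anln, anillin of the contractile ring, stood at 20.6, 10.8, 9.405 and 13.8 CPM in controls 1 to 4 and 32.98, 29.8, 43.1 and 25.7 CPM in mutant-labelled libraries 1 to 4. It rose 2.396-fold (log2 1.26 ± 0.25 SE, adjusted p = 0.01505) and kept the call when any 1 library was left out, as did only Cdc20, Plk1, Aurka, Nek2 and Ect2. Kif20a, a kinesin of the midzone, stood at 9.39, 5.99, 4.53 and 7.33 CPM in controls 1 to 4 and 17.2, 15.7, 19.7 and 10.6 CPM in mutant-labelled libraries 1 to 4. It rose 2.302-fold (adjusted p = 0.0177), with control 1 close to mutant-labelled library 4.

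The rest of the cytokinesis set did not pass. Prc1, which bundles microtubules of the midzone, stood at 22.7, 9.85, 6.11 and 11.4 CPM in controls 1 to 4 and 27.1, 23.3, 34.7 and 15.8 CPM in mutant-labelled libraries 1 to 4. Control 1 lay well above mutant-labelled library 4, the ratio was 1.995 and the adjusted p 0.133. Kif23 and Racgap1, which form the centralspindlin complex that recruits Ect2, had ratios of 2.05 and 2.08 and adjusted p of 0.0575 and 0.0916, with the groups apart for Kif23. Counting did not use strand and dropped reads over more than 1 gene. Exons of opposite-strand neighbours covered 29.3% of the exon bases of Kif20a, 22.8% of Ube2c, 12.5% of Ccna2 and 11.1% of Prc1, so these levels are less certain.

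The most abundant members by counts were not called. Mki67, the Ki-67 gene that coats mitotic chromosomes and is widely used to mark dividing cells, stood at 94.1, 21.1, 11.7 and 42.4 CPM in controls 1 to 4 and 98.8, 79.5, 129.7 and 65.9 CPM in mutant-labelled libraries 1 to 4. The controls differed by 8.05 times, the widest control range of the 36, control 1 lay above 2 of 4 mutant-labelled libraries, and the ratio of 2.19 (log2 1.13 ± 0.53 SE) had an adjusted p of 0.222. Top2a, the topoisomerase that untangles sister chromatids, stood at 76.5, 27, 22.98 and 39.9 CPM in controls 1 to 4 and 89.8, 81.02, 113 and 63.7 CPM in mutant-labelled libraries 1 to 4. Control 1 again lay inside the mutant-labelled range, the ratio was 2.08 and the adjusted p 0.1002. Without control 1 the adjusted p was 0.0149 for Mki67 and 0.00383 for Top2a, and without controls 2 and 3 it was 0.621 and 0.396.

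A call rests on the size of a change and its spread, so the next values only describe how the members divided. The median ratio was 2.48 over the 13 called members and 2.05 over the other 23, and the median of the highest over the lowest control was 2.37 and 3.32. Within the mutant-labelled group the highest library exceeded the lowest by a median of 1.66 and 1.69 times. A separate description divides each gene by the geometric mean of the 36 in the same library, which removes the level they share. On that log2 scale Cdk1 ran from 0.34 to 0.70 in controls and from 0.79 to 0.92 in mutant-labelled libraries. Plk1 ran from -0.82 to -0.44 and from -0.34 to -0.05, and Kif2c from -1.09 to -0.94 and from -0.89 to -0.53. Bub1 went the other way, from -0.69 to -0.09 in controls and from -1.14 to -0.72 in mutant-labelled libraries, and Bub1b from 0.47 to 1.12 and from 0.17 to 0.41. The groups were apart on this scale for these 5 members, for Kif2c only from -0.94 to -0.89, and overlapped for the other 31. The share of all genes that would be apart on such a scale was not computed. These are ratios within a library, with no test, and do not establish that the members changed unequally.

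**Figure D3:**
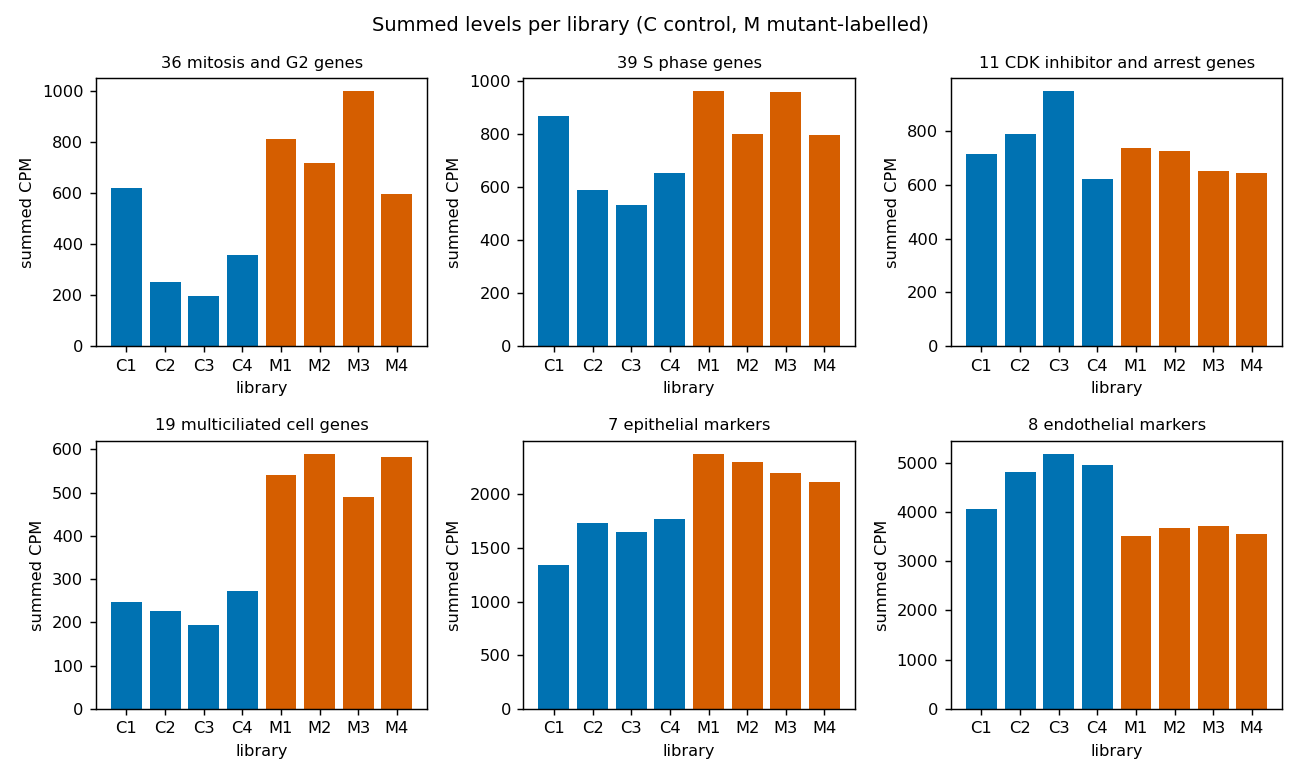
Summed CPM per library of the mitosis and G2 genes, of 3 other gene lists and of epithelial and endothelial markers, with controls in blue and mutant-labelled libraries in orange. Control 1 stands near the mutant-labelled libraries for the mitosis and S phase genes, at 618.9 and 868.2 CPM, and near the other controls for the multiciliated cell genes, at 247.7 CPM.

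Among 73 other genes of mitosis and G2, 19 rose (26.03%, against 5.45% of all genes tested) and 0 fell, with a median log2 fold change of 0.96. The 4 with the lowest adjusted p were Ccdc34 (1.82-fold), the Cdk subunit Cks1b (2.14-fold), the spindle protein Psrc1 (2.54-fold) and Gtse1, a G2 regulator (2.83-fold), with adjusted p from 9.83e-04 to 0.0104. Control 1 was the highest control for 63 of the 73. Ccdc34 was not among these, with its controls at 6.76 to 7.09 CPM and control 2 the highest. Without control 1, 58 of the 73 rose, against 8.86% of all genes tested. The number was 5, 8, 4, 5, 4 and 9, against 3.61%, 3.62%, 3%, 3.12%, 4.07% and 3.36% of all genes tested, when control 2, control 3 or mutant-labelled library 1, 2, 3 or 4 was dropped in its place. The number without control 4 is not given here, so this range does not cover every single library.

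S phase and replication genes rose in 3 of 39 (7.69%), a share near the 5.45% of all genes tested, and fell in 0. Their median log2 fold change was 0.59. An unadjusted p under 0.05 was found for 21 of 39 (53.85%), against 25.2% of all genes tested. Groups did not overlap for 11 of 39 with mutant-labelled libraries above controls, against 9.75% of all genes tested, and for 1 with them below, against 7.07%. The 3 genes called were Rrm1, a subunit of ribonucleotide reductase (1.39-fold), the clamp loader subunit Rfc4 (1.57-fold) and Ccne1, cyclin E1 (2.13-fold). Tyms, thymidylate synthase, had a ratio of 1.62 and an adjusted p of 0.0544. The summed S phase level was 868.2, 589.5, 533.5 and 653.4 CPM in controls 1 to 4 and 962.3, 801.1, 960.6 and 795.6 CPM in mutant-labelled libraries 1 to 4. Here too control 1 lay inside the mutant-labelled range. The summed mitosis and G2 level divided by it was 0.713, 0.424, 0.368 and 0.549 in controls and 0.844, 0.899, 1.04 and 0.751 in mutant-labelled libraries. On this ratio the groups did not overlap, by the narrow step from 0.713 to 0.751. Within the controls the ratio stood in the same order as the summed mitosis and G2 level, 618.9, 250.2, 196.4 and 358.9 CPM in controls 1 to 4. It is therefore not independent of that level and does not show a rise beyond that of S phase genes. With the summed level divided by that of the 73 other mitosis and G2 genes, the groups overlapped, at 0.447 in control 1 and 0.419 in mutant-labelled library 4. Without control 1, 25 S phase genes rose, where 8.86% of all genes tested did. The number was 2 without control 4 (7.05% of all genes tested), 1 without mutant-labelled library 4 (3.36%) and 0 without any single one of the other five (3% to 4.07%).

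Regulators upstream of mitosis gave 0 calls by edgeR's quasi-likelihood test, where 5.45% of all genes tested were called higher and 2.36% lower. In lists this short, 0 calls is near those shares. The first list held 12 subunits of the DREAM and MuvB complexes and their E2F and B-Myb partners, which switch mitosis genes off and on. Of these, 5 (41.67%) had an unadjusted p under 0.05, against 25.2% of all genes tested. DESeq2 called 1 of them lower and limma-voom 0. The 4 with the lowest adjusted p were Lin52 (ratio 0.677), the pocket proteins Rbl2 (0.7804) and Rbl1 (1.32) and Mybl2, B-Myb (1.69), with adjusted p from 0.0989 to 0.111. Of 7 G1 cyclins, CDKs and Rb1, 2 had an unadjusted p under 0.05, a share near that of all genes, and DESeq2 and limma-voom called 0. Cdk4, Rb1, Cdk6 and Ccnd2 led that list with ratios of 1.13, 0.811, 0.908 and 0.9205. Of 11 CDK inhibitors and arrest genes, 5 (45.45%) had an unadjusted p under 0.05, against 25.2% of all genes tested. DESeq2 called 2 of the 11 lower and limma-voom 0. Cdkn1c, the inhibitor p57 (0.7495), Btg2 (0.767), Sesn2 (1.21) and Gadd45a (1.34) led that list, with adjusted p from 0.0712 to 0.157. Of all genes tested, the share called lower was 5.54% with DESeq2, 6.52% without control 1, 4.38% without control 4 and 0.85% without mutant-labelled library 1. Without control 1 the DREAM list gave 2 higher and 2 lower and the inhibitor list 1 lower. Without control 4 the DREAM, G1 and inhibitor lists gave 3, 1 and 1 lower, and without mutant-labelled library 1 the inhibitor list gave 1 lower.

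Genes of multiciliated cell fate and centriole amplification rose in 12 of 19 (63.16%) and fell in 0, with a median log2 fold change of 0.94. Of all genes tested 5.45% were called higher and 2.36% lower. Ccno, a cyclin needed for centriole amplification, stood at 3.61, 3.03, 3.997 and 4.304 CPM in controls 1 to 4 and 34.02, 32.01, 32.6 and 36.04 CPM in mutant-labelled libraries 1 to 4. All 4 controls were low and alike, and Ccno rose 8.96-fold (adjusted p = 1e-06). Mcidas (11.3-fold), Deup1 (6.67-fold) and Cdc20b (10.4-fold), a relative of Cdc20 known from multiciliated cells, followed. Plk4, the kinase that starts centriole duplication in dividing cells too, rose 1.97-fold, and Stil 3.22-fold. Control 1 was the highest control for 7 of these 19 genes, against 35 of 36 mitosis and G2 genes, and its median ratio to the mean of the other controls was 1.0 against 2.27. Between 11 and 14 of the 19 rose when any 1 library was left out, where 3% to 8.86% of all genes tested did. The share of the change in mitosis and G2 genes that comes from such cells was not tested.

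Markers of several cell types moved with the groups, where 5.45% of all genes tested were called higher and 2.36% lower. Of 7 epithelial markers 5 rose and 0 fell, and their sum ran from 1346 to 1767 CPM in controls and from 2114 to 2379 CPM in mutant-labelled libraries. Endothelial markers fell in 4 of 8 and rose in 0, with sums from 4061 to 5179 and from 3504 to 3711 CPM. Club cell markers fell in 4 of 6, with sums from 25100 to 27540 and from 8509 to 10730 CPM. In macrophage and monocyte markers 4 of 9 rose and 0 fell, while the sums, 5829 to 7944 and 6180 to 8432 CPM, overlapped. Lyz2 makes up most of that sum, and single leukocyte genes, chosen after their values were seen, set control 1 apart. Ptprc, the pan-leukocyte gene CD45, stood at 204 CPM in control 1 and at 64.1 to 114 CPM in the other seven libraries. Csf1r stood at 264.5 against 126 to 172 CPM and Itgam at 20.9 against 6.17 to 11.9 CPM. For none of the other macrophage and monocyte markers was control 1 the highest library. Chil3 was lowest there of all 8 libraries, at 271 CPM. Cd68 and Cd14, at 40.3 and 55.6 CPM in control 1, lay below every mutant-labelled library. Mitochondrial genes took 1.88% of the counts in control 1 and 1.25% to 1.51% in the others. The part of these values in the level of the mitosis and G2 genes in control 1 was not tested. Of 6 alveolar type I markers 1 fell, with sums from 4742 to 6019 and from 4717 to 4799 CPM. Per 1000 CPM of epithelial markers the mitosis and G2 genes summed to 459.7, 144.0, 119.3 and 203.1 CPM in controls 1 to 4 and 341.4, 312.9, 454.7 and 282.7 CPM in mutant-labelled libraries 1 to 4. On that scale control 1 was the highest of all 8 libraries. It also had the lowest epithelial sum, 1346 CPM. Among the epithelial markers Krt8, Krt18 and Krt19 rose 2.02-fold, 2.09-fold and 2.14-fold, while Cldn18 and Nkx2-1, with ratios of 0.8985 and 1.24, were not called. The scale is therefore not a measure of epithelial content alone.

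The other marker lists gave 0 calls by edgeR's quasi-likelihood test, which called 5.45% of all genes tested higher and 2.36% lower. Their sums in controls and in mutant-labelled libraries were 22210 to 31830 and 24350 to 30550 CPM for 7 alveolar type II markers, and 461.6 to 714.2 and 365.0 to 473.2 CPM for 5 markers of angiogenic endothelium. For 7 erythroid and progenitor markers they were 1967 to 2918 and 1910 to 2525 CPM, for 7 fibroblast and smooth muscle markers 1778 to 2452 and 1972 to 2382 CPM, and for 4 mesothelial markers 155.8 to 394.3 and 252.8 to 284.6 CPM. Basal cell, neutrophil and lymphoid markers were low, with sums of 4.82 to 14.6, 14.8 to 141.9 and 46.6 to 97.4 CPM over all libraries. The neutrophil genes Ly6g and Mpo had 0 counts in at least 1 library, and no other marker did. At an unadjusted p under 0.05 these lists gave 1 alveolar type II, 1 angiogenic endothelial, 2 erythroid and progenitor, 3 fibroblast and smooth muscle and 1 neutrophil marker, set against 25.2% of all genes tested. The part of each cell type in the level of the mitosis and G2 genes was not tested.

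**Figure D4:**
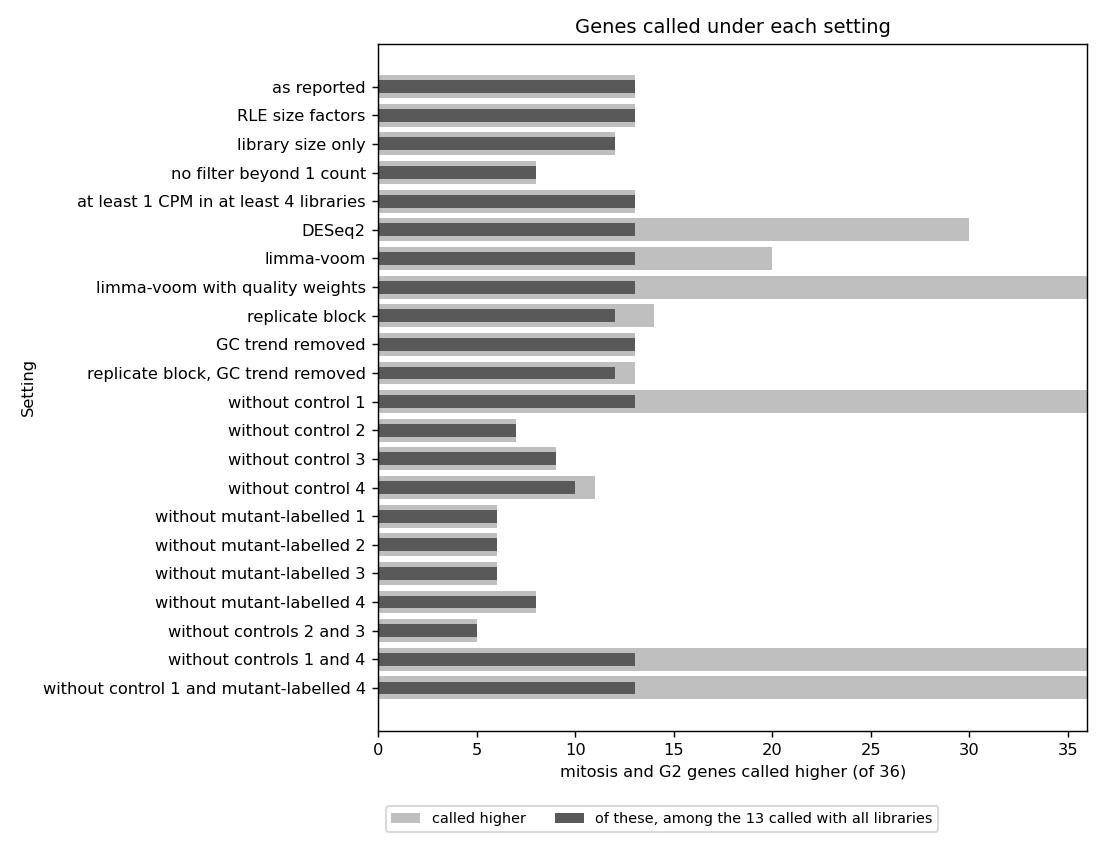
Number of the 36 mitosis and G2 genes called higher under each setting; the dark inner bar counts those among the 13 called with all libraries. The number runs from 5 without controls 2 and 3 to 36 in each fit without control 1 and with library weights.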

How the data were processed

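The authors deposited a table of raw counts. Per the file headers, it came from read pairs counted with featureCounts 1.6.2 against GENCODE M25 on GRCm38, without strand and without reads that map to several places or genes. Kits with and without strand marking appear in the labels. STAR, Bowtie2 and Cufflinks appear, with no role, in the submitters' processing notes. The gene length, another deposited column of other values, was used for CPM per kb. Symbols and GC content came from GENCODE on the same build and matched 99.53% of identifiers. No pair of libraries of 1 group agreed within sampling noise (chi-square per gene 4.72 to 45.3).

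Low genes were removed by filterByExpr (at least 10 counts, and 15 in total), and libraries were scaled with TMM and tested in R 4.3.3 with edgeR 4.0.16 (quasi-likelihood, robust, group as the only term, Benjamini-Hochberg, threshold 0.05). The script was tested on simulated data. CPM uses TMM-scaled totals, and SEs come from the F statistic. Alternatives used DESeq2 1.42.0, limma 3.58.1, other scaling and filters, GC correction, a replicate block and left-out libraries. Promoters are RefSeq's. Members and lists were chosen with earlier results of these data known. Every member is named, with library values for the lowest and highest adjusted p of each role, up to 3 called genes per role and Mki67, Top2a, Cdk1, Ccnb1 and Foxm1, and each other list names its 4 lowest adjusted p. Plk4 and Stil fall outside this rule and were picked after their values were seen.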

Additional observations from a re-analysis of the deposited data

Results flagged for a closer look

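Among 74 groups of 4 libraries examined, the 36 genes and their sum in each group, 2 held a library far from the other three by Dixon's criterion, and chance flags about 1 in 20 such groups. In both it was control 1: Bub1b stood at 18.55 CPM there against 9.44 to 10.9 CPM in the other controls, and Nusap1 at 13.92 CPM against 6.11 to 6.71 CPM.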

How the results depend on the processing

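With all libraries 924 genes were called higher, 401 lower, and 13 members higher. The number of higher genes moved by over 1.5 times with library quality weights (2794) and without controls 1 and 4 (3750), and ranged from 515 to 1517 when 1 library was left out. The number of lower genes did so with DESeq2 (939), with quality weights (2393), without the control pair 2 and 3 (223) or 1 and 4 (3338), and when control 1 and mutant-labelled library 4 were dropped (625), and ranged from 146 to 1117 when 1 library was left out. For the members the numbers were 8 without a filter, 30 with DESeq2, 20 with limma-voom, 36 with quality weights, 5 without the control pair 2 and 3, 36 without the pair 1 and 4, 36 when control 1 and mutant-labelled library 4 were dropped, and 6 to 36 when 1 library was left out. The cause was not tested. The other settings kept these counts within 1.5 times, and no member was called lower under any of the 21. The 62 genes followed singly gave 1302 values: 1055 kept direction and side of the threshold, 85 fell short of it, 162 newly passed it, and 0 turned. The replicate block, which treats libraries of 1 number as pairs, called 14 members, 12 of them among the 13, and 865 genes higher (5.1%) and 371 lower, and with the GC trend removed too it called 13 members. Deviations of libraries with the same number correlated at 0.007, 0.129, -0.123 and 0.134, and those of libraries with different numbers at -0.145 to 0.149. These values show no pairing by number but cannot exclude it. Mean summed member levels scaled by library size moved by less than 1 SD, and counts of member windows with a motif stayed within 1.5 times in 150 bases; those of all windows fell further, from 25.2% to 14.7% with CHR letters and from 8.78% to 3.6% with both.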
